A study of Mus musculus with 2 samples.

Results

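Cpa3, Cma1, Mcpt1, Mcpt2, Mcpt4, Mcpt8, Ctsg, Gzmb, Gzmc and Tpsb2 encode proteases that mast cells, basophils and related granule-bearing cells store in secretory granules. These 10 genes are a small group among the 31709 genes with a probe on the arrays. They were selected on measured values, since the differences of several of them between the same arrays were known, and further genes of the same locus and a tryptase gene were taken with them. The differences of these 10 genes are therefore a description and carry no test.

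Mast cell granules hold proteases bound to serglycin, a core protein that carries heparin or chondroitin sulphate chains, and release them when the cell is activated. The chymases, cathepsin G and several granzymes are related serine proteases that are encoded side by side on mouse chromosome 14. Carboxypeptidase A3 and the tryptases are encoded elsewhere in the genome. Granzyme B is best known as a killing protease of T and NK cells, and mouse mast cells can make it too.

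The study used BaF/3 (#BEB1), a single Ecrg4-binding clone, and the parental Ba/F3 cells, which are murine pro-B cells dependent on interleukin-3. The clone came out of 5 rounds of sorting for Ecrg4 binding. Before the sorting, Ba/F3 cells had been infected with a retroviral expression library made from CG4 cells, a line of rat oligodendrocyte precursors. Ecrg4 is a secreted, hormone-like peptide. Cyanine 3-labelled RNA of each cell line was hybridised to 1 Agilent whole mouse genome array, and both arrays lay on 1 slide. As each cell line had 1 array, the differences are sizes without replication, and no p-value was computed. A change in a clone and a change due to the infection and sorting cannot be told apart.

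The 2 arrays are assigned to opposite cell lines in the 2 kinds of deposited values. Array A is listed under BaF/3 (#BEB1) in the authors' table but was deposited as scanner output of parental Ba/F3, and array B is the other one. Over 39429 probes, the table column of BaF/3 (#BEB1) had a Pearson correlation of 0.999996 with array A and of 0.982286 with array B, across probes that are not independent replicates. All differences below are array A minus array B, which by the table subtracts the parental cells from BaF/3 (#BEB1), and by the scanner output subtracts BaF/3 (#BEB1) from the parental cells. A negative value thus means lower in BaF/3 (#BEB1) by the table and higher in BaF/3 (#BEB1) by the scanner output, and the deposited labels do not settle which holds. Olr1, which encodes LOX-1, the Ecrg4-binding receptor that the study cloned from a library of BaF/3 (#BEB1) RNA, had a scaled log2 level of 3.11 on array A, against −1.90 on array B, a difference of 5.01. By the table this is higher in BaF/3 (#BEB1), and by the scanner output higher in the parental cells. The paper reports from its microarray that LOX-1 mRNA was much more abundant in the clone, which is the direction of the table. No measured level was used here to assign an array to a cell line.

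On array A 49.4% and on array B 49.9% of the probes were well above background, which is the scanner software's mark for a spot clearly brighter than its surroundings. Of the 31709 genes, 14815 had a probe well above background on both arrays and are called measured, and genes with no such probe on either array are called undetected. The median difference over measured genes was −0.02 on the log2 scale. Genes that mark pro-B cells were only partly detected. Cd79b (−2.30) and Vpreb1 (−1.39) were measured, and Cd79a, Pax5, Ebf1, Rag1 and Dntt were undetected.

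Probes of several of the proteases are shown first, because the value of each gene printed here is the brightness of 1 oligonucleotide at 1 spot. All are 60 bases long and are written 5′ to 3′. They are the probes of the 4 proteases measured on both arrays, of Gzmc, which was well above background on 1 array, and of Mcpt4. Capitals in the Mcpt4 probe mark a run of 27 bases that also stands in the probe of Mcpt-ps1, a pseudogene of the same locus.
Cpa3: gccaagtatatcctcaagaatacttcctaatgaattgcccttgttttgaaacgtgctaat
Gzmb: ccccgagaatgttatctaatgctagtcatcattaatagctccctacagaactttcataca
Cma1: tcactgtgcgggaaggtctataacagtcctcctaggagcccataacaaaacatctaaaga
Ctsg: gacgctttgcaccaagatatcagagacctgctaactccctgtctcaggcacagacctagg
Gzmc: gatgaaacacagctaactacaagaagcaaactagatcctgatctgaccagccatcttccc
Mcpt4: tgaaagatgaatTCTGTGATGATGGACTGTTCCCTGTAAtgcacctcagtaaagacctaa
No other protease probe of the group had more than 15 bases in a row in common with a probe of another gene on the array. The search covered the probes of the array on the same strand and not whole transcripts.

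By the coordinates in the scanner output, which use the mm9 build, the Cpa3 probe lay on chr3:20115674-20115733 on the minus strand. The Gzmb probe lay on chr14:56877916-56877975, the Gzmc probe on chr14:56850307-56850366, the Ctsg probe on chr14:56718795-56718854 and the Mcpt4 probe on chr14:56678589-56678648, each on the minus strand. The Cma1 probe was placed on chr14:56561491-56562550 on the minus strand, a span of 1060 bases for 60 letters, so its match to the genome has a gap. The Mcpt8 probe likewise spanned 375 bases. Position within exons or untranslated regions was not looked up, because no annotation of mm9 was used here.

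Of the 10 genes, 4 were measured, and these 4 were at least 2-fold brighter on array B. None of the 10 (0) was at least 2-fold brighter on array A. Over all measured genes, 7.30% were at least 2-fold brighter on array B and 3.85% on array A, but the 10 genes were chosen on this same contrast and nothing is read from their share. The median difference of the 4 measured genes was −3.90. Gzmc was well above background on array B only, and Mcpt1, Mcpt2, Mcpt4, Mcpt8 and Tpsb2 (5 genes) were below that mark on both arrays.

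Cpa3 encodes carboxypeptidase A3, a zinc protease that trims residues from the carboxy end of peptides and is one of the most abundant mast cell granule proteins. Its probe (NM_007753) had a signal of 170 ± 18.2 on array A, against 5298 ± 530 on array B, where the error is the scanner software's own estimate for the spot. After division by each array's 75th percentile, the level was −3.15 on array A, against 2.29 on array B on the log2 scale. The difference was −5.44 ± 0.21, or 43.4-fold brighter on array B. On array A the gene lay below the scaling point of that array, and on array B above it. With normexp background correction, which models signal and background together, the difference was −4.84. Cpa3 ranked 5 among 14815 measured genes in order of the difference towards array B.

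Gzmb encodes granzyme B, a serine protease that cuts after aspartate and triggers cell death when perforin lets it into a target cell. Its probe (NM_013542) had a signal of 320 ± 32.6 on array A, against 6649 ± 665 on array B. On the scaled log2 axis the level was −2.23 on array A, against 2.62 on array B, a difference of −4.86 ± 0.21 or 29.0-fold. It ranked 7 towards array B. Both signals lay far above the lowest detected signals, which were 27.6 for array A and 22.9 for array B.

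Cma1 encodes mast cell chymase 1, also called mMCP-5, an α-chymase of connective tissue mast cells. Its probe (NM_010780) had a signal of 40.7 ± 7.68 on array A, against 225.3 ± 23.2 on array B. On the scaled log2 axis the level was −5.21 on array A, against −2.26 on array B, a difference of −2.95 ± 0.31 or 7.73-fold, with rank 44 towards array B. The signal on array A was close to the lowest signal well above background, so the size of this difference rests on a dim spot. With normexp correction the difference was −1.74.

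Ctsg encodes cathepsin G, a chymase-like protease of neutrophil, monocyte and mast cell granules. Its probe (NM_007800) had a signal of 52.4 ± 8.6 on array A, against 131.8 ± 14.3 on array B. On the scaled log2 axis the level was −4.84 on array A, against −3.04 on array B, a difference of −1.81 ± 0.28 or 3.51-fold, with rank 212 towards array B. It was the smallest difference of the 4 measured proteases, and with normexp correction it was −1.06. The ± of each difference covers spot noise only and holds no spread between cultures.

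The array carries some probes at 10 spots, which gives the spread of repeated spots on 1 array. Among those with signals of 25 to 100, the log2 values of the 10 spots had a median SD of 0.20 for array A and 0.17 for array B. Among those above 1000 the median SD was 0.05 for both. None of the 10 proteases had such a probe, and each of their 11 probes stood at 1 spot with no outlier mark on either array. This spread is technical and says nothing of the spread between cultures.

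Gzmc encodes granzyme C, a killing protease of activated T and NK cells. Its probe (NM_010371) had a signal of 7.05 on array A, not well above background, and 38.9 ± 6.78 on array B. With the dimmest detected signal of array A in place of its own, Gzmc stood at least 1.96-fold brighter on array B. This bound stays below 2-fold, so Gzmc was not counted with the 4 genes above. On the log2 scale it was −0.97, and −1.06, past 2-fold, when the arrays were scaled on probes detected on both.

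Mcpt1 and Mcpt2 encode the β-chymases mMCP-1 and mMCP-2 of mucosal mast cells. Mcpt1 had a signal of 7.62 on array A, against 6.20 on array B, and Mcpt2 had 7.08 on array A, against 5.64 on array B. Mcpt4, the β-chymase mMCP-4 of connective tissue mast cells, had 24.8 on array A, against 21.6 on array B. These signals were those of spots not well above background, and no fold is given for them.

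Mcpt8 encodes mMCP-8, which in the mouse marks basophils. Its probe read 6.62 on array A, against 5.5 on array B, again not well above background. Tpsb2 encodes the tryptase mMCP-6, a trypsin-like mast cell protease on chromosome 17, and had 2 probes. They gave 8.13 and 21.6 on array A, against 6.47 and 15.2 on array B. Mcpt1, Mcpt2, Mcpt4, Mcpt8 and Tpsb2 were thus undetected, which does not show that their transcripts were absent.

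**Figure D1:**
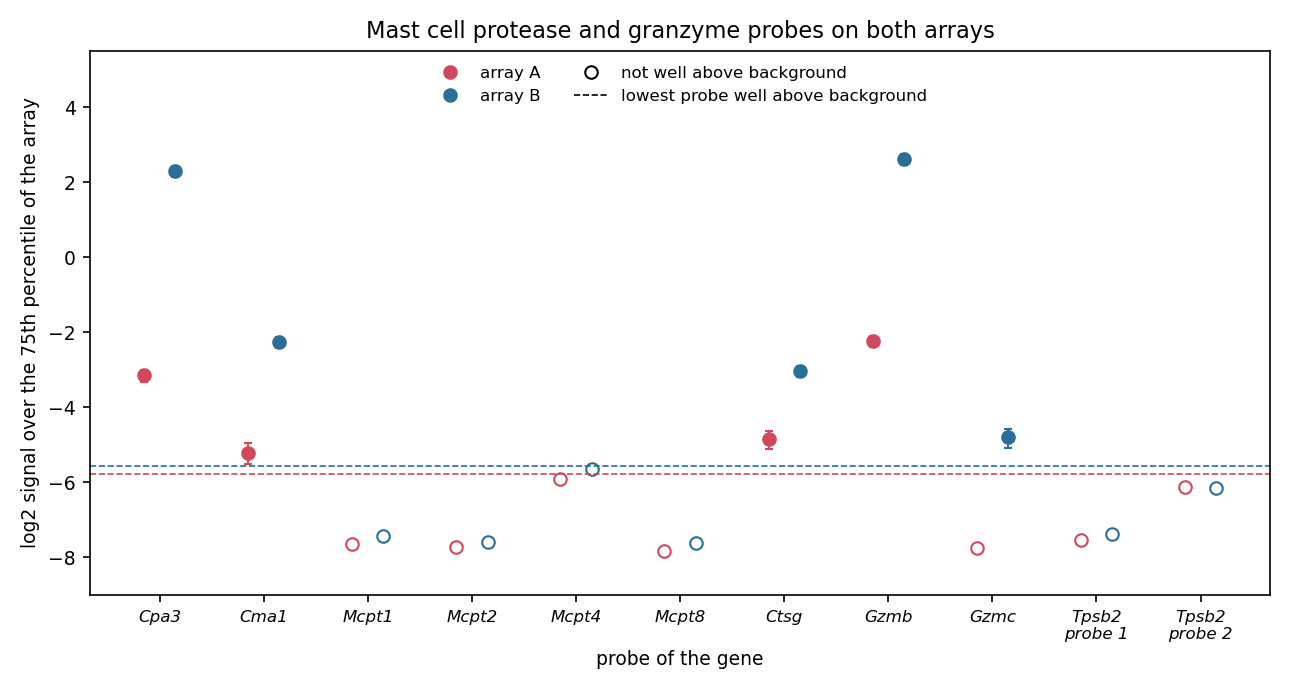
Scaled signal of each protease probe (log2 of the signal over the array's 75th percentile, vertical axis) on array A (red, left) and array B (blue, right), with error bars from the scanner software's spot error. Filled points are well above background and open points are not, and dashed lines mark the lowest probe well above background on each array. Cpa3, Cma1, Ctsg and Gzmb are filled on both arrays and higher on array B, and Gzmc is filled on array B only.

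Among the 14815 measured genes, 149 were at least 4-fold and 13 at least 16-fold brighter on array B. Cpa3 and Gzmb were among these 13 genes, Cma1 was among the 149, and Ctsg was in neither count. The ranks restate how the genes were chosen and support nothing further.

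**Figure D2:**
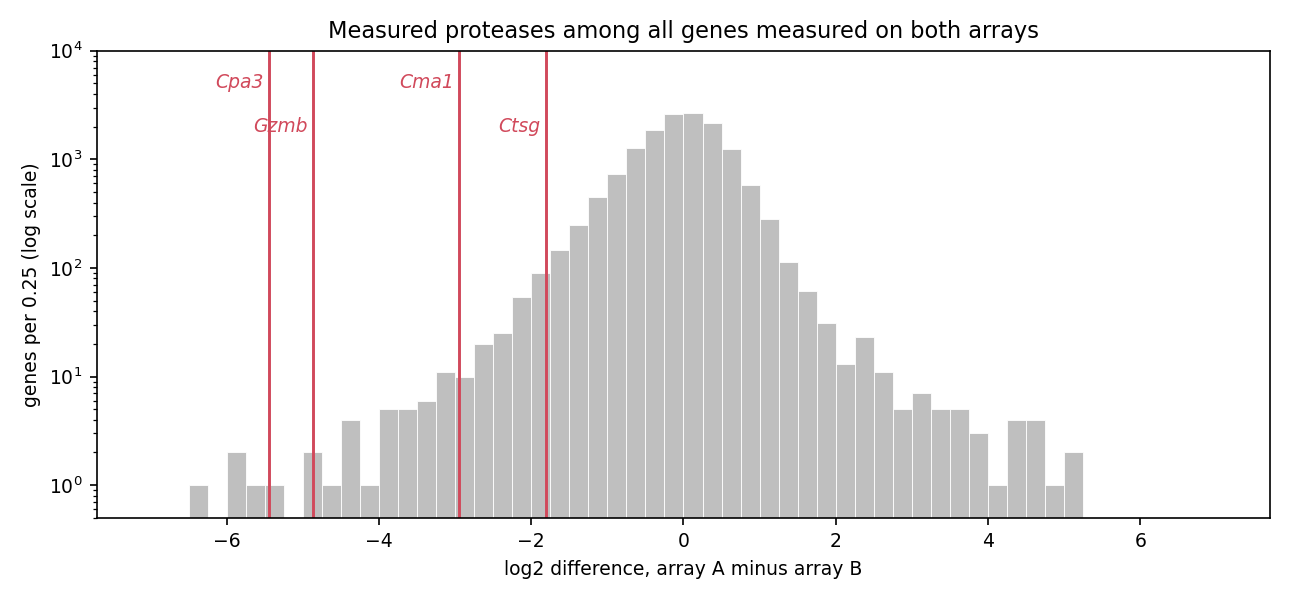
Number of measured genes (log scale, vertical axis) by log2 difference, array A minus array B (horizontal axis, steps of 0.25), with red lines at the 4 measured proteases. Cpa3 (−5.44) and Gzmb (−4.86) lie in the thin left tail, Cma1 (−2.95) further in, and Ctsg (−1.81) nearest the bulk of the genes.

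Of the 10 genes, 8 have their probe in 1 stretch of chromosome 14 that is 316.5 kb long from the Cma1 probe to the Gzmb probe. With 7 further chymase and granzyme genes, the array covers 15 protease genes of this locus. Of these 15 genes, 4 were measured, 3 were at least 2-fold brighter on array B, 0 on array A, 1 was well above background on array B only and 10 on neither array. The 3 genes are Gzmb at one end, Ctsg at −159.1 kb relative to the Gzmb probe, and Cma1 at the other end, at −315.9 kb. All 3 belong to the 10 genes chosen on this contrast, so no trait of the locus is read from their count. Cma2, the 1 measured gene among the 7 further ones, differed by −0.21. Over all measured genes, 7.30% were at least 2-fold brighter on array B and 3.85% on array A. Of all 31709 genes, 15197 were undetected and 905 passed the background mark on array B alone.

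Apart from Gzmc, which was well above background on array B only, the proteases between these genes were close in level on both arrays or undetected. Cma2, a second chymase gene, had a signal of 178.7 on array A, against 148.5 on array B. Its scaled difference was −0.21, and 0.08 when the arrays were scaled to their medians, so its direction depended on the scaling. Mcpt9, a mast cell protease gene known from the mouse uterus, had 5.47 on array A, against 19.0 on array B and was not well above background on either. Gzmd, Gzme, Gzmf, Gzmg and Gzmn, granzyme genes between Ctsg and Gzmc that are found in the mouse but not in the human locus, were also not well above background on either array. Many of these genes are close copies, and cross-hybridisation between their transcripts was not tested beyond the comparison of probes.

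A predicted gene named Gm4015 in the scanner output lay at −269.2 kb relative to the Gzmb probe, between Cma2 and Mcpt1. It had a signal of 72.0 on array A, against 213.3 on array B, a difference of −2.05 or 4.13-fold, and of −1.31 with normexp correction. No role of its product is given here. The remaining transcripts inside the locus, Mcpt-ps1, ENSMUST00000111324 and LOC100046531, were undetected.

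Genes around the locus gave the comparison with its surroundings. Within 1 Mb of its ends or inside it, 77 genes or transcripts other than these proteases had a probe, and 43 were measured. Their median difference was −0.13, and 0 were at least 2-fold brighter on array A, against 4 on array B. The shares over all measured genes were 3.85% for array A and 7.30% for array B. This count of measured genes does not set the surroundings apart. The 4 were Gm4015, Emc9 (−2.01), LOC674761 (−1.26) and Ltb4r1 (−1.12), a leukotriene B4 receptor gene. Ltb4r1 (−0.83) and LOC674761 (−0.97) fell short of 2-fold when the arrays were scaled to their medians. The count leaves out genes that passed the background mark on a single array, 3 on array B and 1 on array A. Bounds past 2-fold were held by 2 of them, both brighter on array B. These were Zfhx2os, at least 4.72-fold, and 2700022O18Rik, at least 2.28-fold. No share of such bounds over all genes is given here for comparison. The nearest measured genes outside the locus were Sdr39u1, 45 kb before Cma1 at −0.07, and Cenpj, 268 kb past Gzmb at 0.04.

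**Figure D3:**
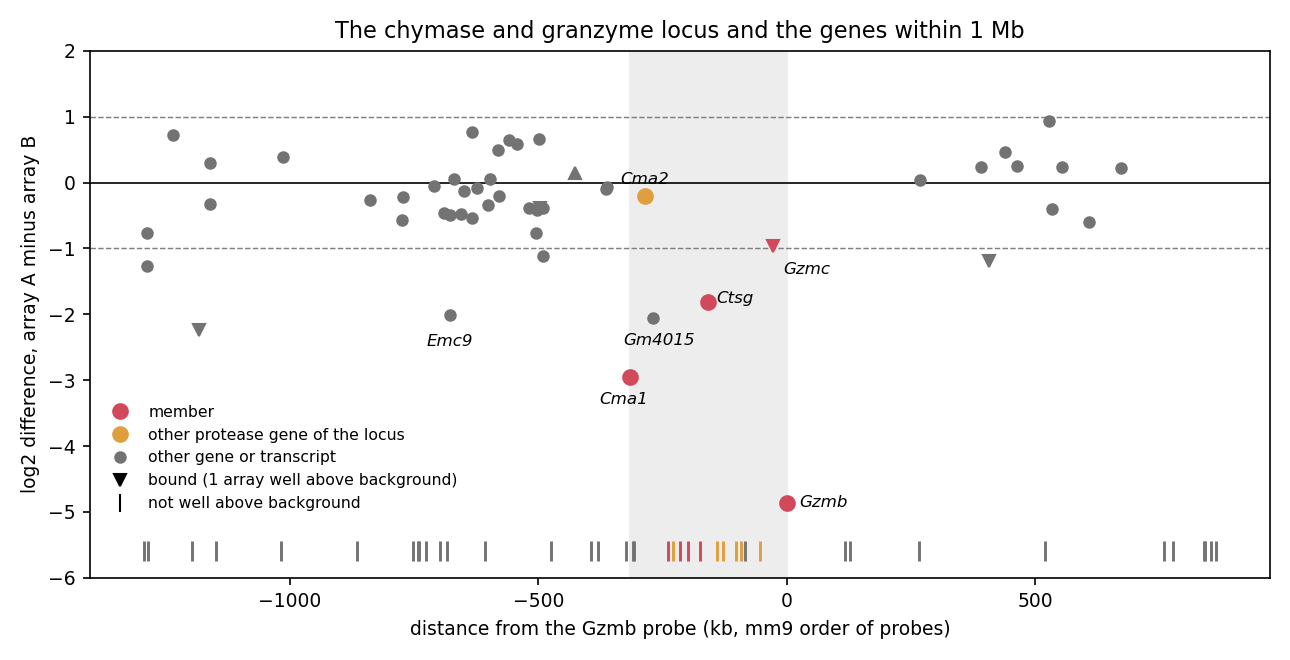
Log2 difference, array A minus array B (vertical axis), of every gene with a probe in or within 1 Mb of the chromosome 14 locus (shaded), by distance from the Gzmb probe in kb (horizontal axis). Triangles are bounds of genes well above background on 1 array and ticks at the bottom are genes below that mark on both arrays. Gzmb, Cma1 and Ctsg lie below −1 and Gzmc at its bound of −0.97, while Cma2 and the nearest measured flanking genes lie near 0. Other genes below −1 include Gm4015 (−2.05) inside the locus, and Emc9 (−2.01) and the bound of Zfhx2os (−2.24) outside it.

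Cpa3 stands on chromosome 3, away from the other carboxypeptidase genes tested except Cpb1, 33.7 kb from it, which was undetected. Of 17 other genes or transcripts within 1 Mb of Cpa3, 7 were measured, with a median difference of 0.05. The neighbours Gyg (−0.04) and Hltf (0.12) differed little. Cp, which encodes ceruloplasmin, was the 1 neighbour at least 2-fold brighter on array B (−1.21), and it was below 2-fold (−0.92) with scaling to the medians.

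Promoters are shown because members of the GATA family, GATA-1 and GATA-2, are known regulators of mast cell protease genes, and both were measured here. Sequences from 250 bases before to 50 bases after the start of the gene came from RefSeq (GRCm38.p6) and matched 8 of the 10 genes, all but Mcpt2 and Tpsb2. The motif GATAA, searched on both strands, stood in 4 of the 8 promoters, against 25.3% of 32534 promoters in the table. The 4 promoters follow, 5′ to 3′ on the strand of the gene, with the motif or its reverse complement in capitals.
Cpa3 promoter: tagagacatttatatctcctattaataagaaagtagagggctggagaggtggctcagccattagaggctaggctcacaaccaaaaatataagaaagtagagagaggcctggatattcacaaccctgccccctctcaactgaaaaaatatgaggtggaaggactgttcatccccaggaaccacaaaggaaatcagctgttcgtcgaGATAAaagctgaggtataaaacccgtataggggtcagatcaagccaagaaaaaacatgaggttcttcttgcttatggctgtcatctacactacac
Cma1 promoter: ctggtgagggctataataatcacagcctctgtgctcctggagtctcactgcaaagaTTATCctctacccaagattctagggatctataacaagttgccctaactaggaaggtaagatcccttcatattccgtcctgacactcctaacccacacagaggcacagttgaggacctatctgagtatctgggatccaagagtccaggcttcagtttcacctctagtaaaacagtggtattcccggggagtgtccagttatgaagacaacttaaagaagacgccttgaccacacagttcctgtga
Mcpt1 promoter: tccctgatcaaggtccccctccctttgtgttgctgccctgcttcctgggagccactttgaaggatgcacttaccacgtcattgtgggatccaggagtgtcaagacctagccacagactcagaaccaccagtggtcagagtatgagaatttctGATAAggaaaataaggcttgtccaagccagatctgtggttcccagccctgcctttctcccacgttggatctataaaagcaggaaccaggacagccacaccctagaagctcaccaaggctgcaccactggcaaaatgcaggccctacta
Mcpt4 promoter: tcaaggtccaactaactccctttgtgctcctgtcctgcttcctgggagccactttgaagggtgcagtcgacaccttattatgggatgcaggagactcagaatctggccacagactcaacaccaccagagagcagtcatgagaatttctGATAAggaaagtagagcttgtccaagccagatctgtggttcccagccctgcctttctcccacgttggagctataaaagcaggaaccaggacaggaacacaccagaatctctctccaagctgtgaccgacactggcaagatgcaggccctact
The motif began 45 bases before the start in Cpa3, 194 in Cma1 on the other strand, 98 in Mcpt1 and 102 in Mcpt4. Cpa3 and Cma1 were measured and brighter on array B, whereas Mcpt1 and Mcpt4 were not well above background, and the promoters of Gzmb and Ctsg held no GATAA in this window. The Mcpt1 and Mcpt4 promoters had a run of 53 identical bases in common, and no other pair among 28 had more than 10. A match to a motif is a description of the letters and not of a bound site.

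Further motifs were CAGCTG and CACCTG, forms of the E-box bound by basic helix-loop-helix factors, and TTCNNNGAA, the form bound by STAT factors. Each was searched on both strands, and no match of these overlapped a GATAA match. CAGCTG stood in 1 of the 8 promoters, that of Cpa3, 59 bases before the start, against 16.4% of all promoters. CACCTG stood in 2, those of Mcpt8 and Ctsg, against 20.3%. TTCNNNGAA stood in 2, those of Ctsg, 189 bases before the start, and Gzmb, 37 bases after it, against 8.3%. The Gzmc promoter held none of the 4 motifs.

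Proteases of the same families elsewhere in the genome were examined next. Of 6 genes for tryptases and related serine proteases, 1 was measured, Prss28, with a signal of 41.1 on array A, against 40.4 on array B and a difference of −0.45. Tpsab1, which encodes the tryptase mMCP-7, Tpsg1, Prss29, Prss30 and the basophil protease gene Prss34 were undetected. Among further carboxypeptidase genes, Cpa5 stood at least 1.97-fold brighter on array B, where alone it was well above background, and 5 were undetected. No gene of these lists was at least 2-fold apart as measured on both arrays (0 on array A, against 0 on array B).

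Granule serine proteases and perforin outside the locus gave 6 measured genes of 7, with 0 at least 2-fold brighter on array A, 2 on array B and a median of −0.19, where all measured genes gave 3.85% on array A and 7.30% on array B. Prtn3, which encodes proteinase 3 of neutrophil granules, had a signal of 54.8 on array A, against 362.6 on array B (−3.20, and −2.24 with normexp correction). Prss57, a neutrophil serine protease gene, had 120.4 on array A, against 261.4 on array B (−1.60). Elane, the neutrophil elastase gene, is a neighbour of Prtn3 in the genome and had 453.9 on array A, against 303.6 on array B (0.10). Prf1, the perforin gene whose product opens the way for granzyme B, differed by 0.48, and Gzma, the granzyme A gene, was undetected.

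Storage, activation and release of granule proteases were represented by 23 genes, of which 18 were measured. At least 2-fold brighter were 3 on array A, against 1 on array B, and the median was 0.15, beside shares of 3.85% on array A and 7.30% on array B over all measured genes. Srgn, the serglycin gene, differed by 0.47 and Ndst2, whose enzyme sulphates mast cell heparin, by −0.30. Ctsc, which encodes the dipeptidyl peptidase that activates chymases and granzymes, differed by 0.85, and by 1.14 with scaling to the medians. Among the measured genes of this list, 14 of 18 differed by less than 2-fold. Ext2, another gene of the list, was well above background on array B only and stood at least 2.5-fold brighter there.

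On array A, the brighter genes of this list were Ctss (3.15), Hdc (1.67) and Glce (1.15). Ctss encodes the lysosomal protease cathepsin S and had a signal of 6626 on array A, against 536 on array B. Hdc encodes histidine decarboxylase, which makes the histamine that mast cells store beside the proteases, and had 2751 on array A, against 621.5 on array B. This is the opposite direction to Cpa3 and Cma1. Glce encodes an epimerase of heparin synthesis. Ctsd, the cathepsin D gene, was brighter on array B (−1.44) and just below 2-fold when only its brightest probe was used (−0.99). Slc18a2, the carrier that loads histamine into granules, differed by −0.01.

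Protease inhibitors gave 10 measured genes of 11, with 3 at least 2-fold brighter on array A, 1 on array B and a median of 0.11, beside the same 3.85% and 7.30% of all genes. Serpina3f (1.98), Serpinb6b (1.26) and Serpina3g (1.05), all serpin genes, were brighter on array A. With normexp correction Serpina3f was at 1.35 and Serpinb6b at 0.91, and Serpina3g was at 0.97 with quantile scaling. Cst7 encodes cystatin F, an inhibitor of cathepsin C, and had 1590 on array A, against 4491 on array B (−1.98). Serpinb9, the granzyme B inhibitor gene, and Lxn, which encodes the carboxypeptidase inhibitor latexin, differed by 0.10 and 0.13.

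Receptors, enzymes and factors of mast cells and basophils gave 17 measured genes of 28, with 2 at least 2-fold brighter on array A, 5 on array B and a median of −0.23, beside 3.85% on array A and 7.30% on array B over all measured genes. Fcer1a, the α chain of the high-affinity IgE receptor, had a signal of 6.80 on array A, not well above background, and 904.1 on array B, so it stood at least 45.7-fold brighter on array B. This bound was −5.51 on the log2 scale, and −3.91 with normexp correction. Fcer1g, the γ chain of the same receptor, had 268.8 on array A, against 69.0 on array B (1.48, and 0.81 with normexp correction). The 2 chains of this receptor therefore differed in opposite directions. Ms4a2, its β chain, and Kit, the stem cell factor receptor that mast cells need, were undetected.

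Alox5, which encodes the 5-lipoxygenase of leukotriene synthesis, had 956 on array A, against 9027 on array B (−3.72). Csf2rb, the β chain of the interleukin-3, interleukin-5 and GM-CSF receptors, and Csf2rb2, its interleukin-3-specific copy in the mouse, differed by −1.86 and −1.60. They are near-identical genes, and their probes may read both. Cd200r3, a receptor gene of basophils and mast cells, was brighter on array A (1.38).

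Gata2 differed by −1.40, with a signal of 16550 on array A, against 31420 on array B. Gata1 differed by −1.16, and by −0.86 with scaling to the medians. Mitf, a factor needed for mast cell development, differed by −0.20, and by 0.10 with scaling to the medians. Whether the level of any of these factors bears on the proteases was not tested.

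**Figure D4:**
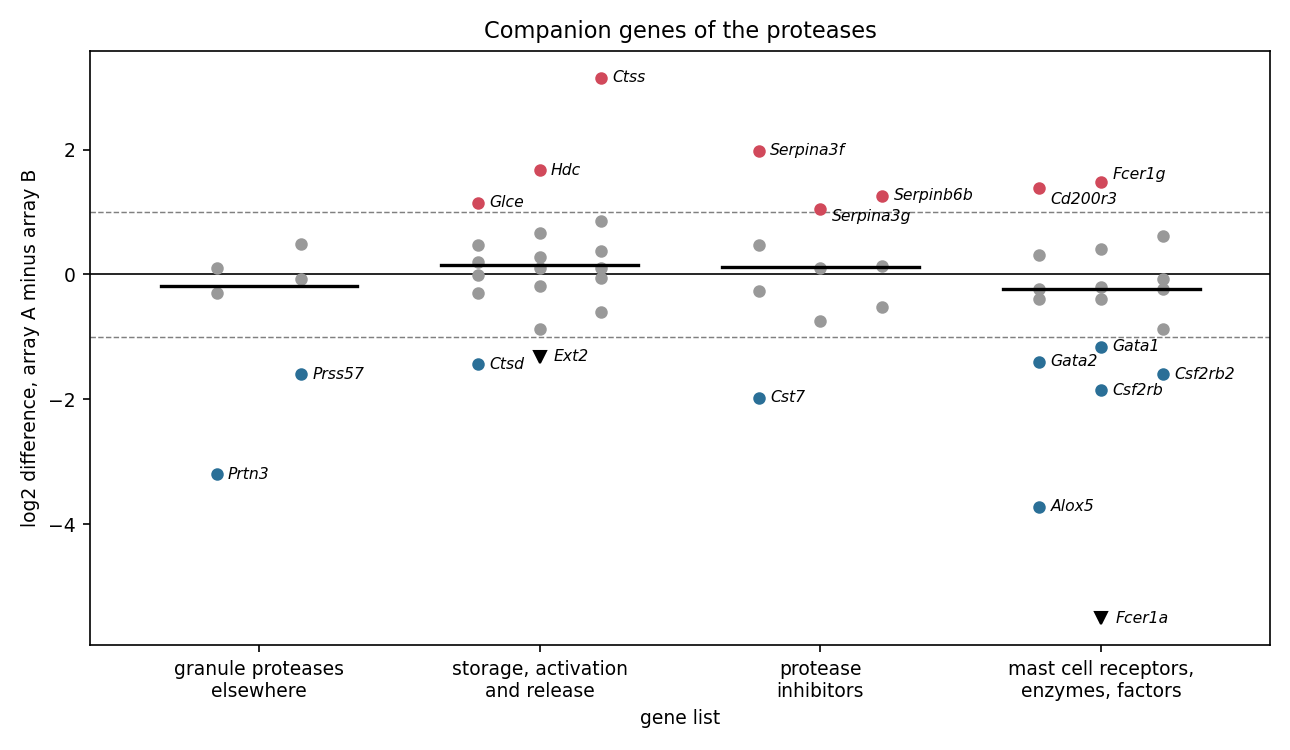
Log2 difference, array A minus array B (vertical axis), of measured genes in 4 lists (horizontal axis), with genes at least 2-fold brighter on array A in red and on array B in blue. Triangles are bounds of genes well above background on array B only, and bars are medians over measured genes. The medians lie between −0.23 and 0.15, and named genes lie on both sides in 3 of the 4 lists.

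Over the 4 lists in that plot together with the tryptases and the carboxypeptidases, the counts came to 8 of 53 measured genes brighter on array A, against 9 on array B. All measured genes gave 3.85% on array A and 7.30% on array B.

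Neutrophils are another granule-bearing cell type, and 0 of their markers were at least 2-fold brighter on array A. Of 6 neutrophil markers, 4 were measured and 3 were at least 2-fold brighter on array B, Ngp (−4.07), Ltf (−3.11) and Mpo (−2.84), which encode granule proteins of neutrophils and their precursors. All measured genes gave 7.30% in this direction. With normexp correction the differences were −2.99 for Ngp, −2.22 for Ltf and −1.82 for Mpo, whose spots were dim on array A. S100a8 stood at least 180-fold brighter on array B, while Elane differed by 0.10 and Camp was undetected. Their part in the differences of Cpa3, Gzmb, Cma1 and Ctsg was not tested.

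Of the 8 mast cell markers, which hold 4 of the 10 proteases, Cpa3, Cma1 and Hdc were measured, Fcer1a was well above background on array B only, and Kit, Ms4a2, Mcpt4 and Tpsb2 were undetected. Of 4 basophil markers, Cd200r3 was measured and brighter on array A (1.38), and Mcpt8 and Prss34 were undetected. The remaining basophil marker was Fcer1a, at least 45.7-fold brighter on array B, so the detected basophil markers went in opposite directions. Among 5 macrophage markers, Csf1r (−0.46) and Adgre1 (0.90) were measured. Lyz2, another of them, was well above background on array B only and stood at least 1.76-fold brighter there. Among 6 T and NK cell markers, Cd3e (0.22) and Prf1 (0.48) were measured. In RNA of whole cultures, fewer cells with a transcript and less of it per cell cannot be told apart.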

How the data were processed

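Each cell line had 1 one-colour array. The authors deposited the scanner output, holding a background-subtracted intensity per spot from Agilent Feature Extraction 9.5.1.1, with surrogate values for spots not above background. A second deposited file holds log2 values that the authors floored at 1.0 and scaled to the 75th percentile. Here, the 43020 non-control spots were processed the same way from the scanner intensity. Spots of a probe were averaged, and probes well above background on both arrays were averaged per gene. A gene detected on 1 array got a bound against the lowest detected signal. The number of arrays limits the precision. Names came from RefSeq (GRCm38.p6, names and promoters only) for all but 9249 of 39429 probes.

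The 10 genes and all lists were chosen with earlier results of these data known. All 10 were named, with up to 4 genes per list at least 2-fold apart and those whose role the text turns on. Some listed genes are not reported here. The window around Cpa3 was added after its value was seen. Alternatives changed scaling, floor, background correction, filter, outlier marks, probe averaging, table and threshold. Python 3.11.15, R 4.3.3 and limma 3.58.1 were used. The steps were tested on simulated data, in which no gene as dim as Cma1 or Ctsg on array A was among those changed.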

Additional observations from a re-analysis of the deposited data

How the results depend on the processing

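Cpa3, Gzmb, Cma1 and Ctsg stayed at least 2-fold brighter on array B under all settings tried. Over 12 settings their differences ran from −5.52 to −4.84 for Cpa3, −4.94 to −4.54 for Gzmb, −3.03 to −1.74 for Cma1 and −1.89 to −1.06 for Ctsg. The bound of Gzmc ran from −1.06 to −0.68, and its plain difference without a filter on dim probes, against an undetected signal on array A, was −2.94. The median of the measured proteases, −3.90, was −3.61 with median scaling, −3.14 with normexp correction, −2.38 with a looser filter and −1.04 with none, where undetected members enter, and −2.95 with Gzmc at its bound. Without a filter, 5 locus genes and 16 companion genes were at least 2-fold brighter on array B. With the filter kept and a 3-fold threshold, 3 companion genes were brighter on array A.

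Over all genes, the count on array A (570) was 1313 with median scaling, 949 with a looser filter, 1491 without a filter and 156 at 3-fold. For array B (1082) it became 587 under median scaling, 707 with normexp correction, 1902 with a looser filter, 2777 without a filter and 333 at 3-fold. Median scaling shifted all differences by 0.29 towards array A, and 69.1% of the genes at least 2-fold apart were then higher on array A, against 34.5% in the values reported. Among 117 counts and medians and 600 other values, 0 were marked as changing to the other side while past 2-fold. Counts have no sign, so this mark could apply only to medians and differences. The balance of the all-gene counts did turn, to 1313 on array A against 587 on array B under median scaling. No paired analysis was possible because each cell line had 1 array. Depth of signal limits Cma1, Ctsg and Gzmc, whose spots were dim on array A.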
